A study of Oryza sativa Japonica Group with 28 samples.

Results

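The 9 MADS-box genes described here encode transcription factors of the MIKC type that are known from the rice ovule, flower and seed. They were chosen by name and gene identifier, with earlier results of these data known: OsMADS29 (Os02g0170300), OsMADS13 (Os12g0207000), OsMADS21 (Os01g0886200), OsMADS6 (Os02g0682200), OsMADS3 (Os01g0201700), OsMADS58 (Os05g0203800), OsMADS1 (Os03g0215400), OsMADS7 (Os08g0531700) and OsMADS8 (Os09g0507200). They are 9 of the 45990 genes in the table, and all 9 were among the 27527 genes that passed the filter on low values. At 8 days after flowering (DAF) all 9 were higher in the mean of the maternal tissues of the grain than in the endosperm. Not every maternal tissue passed the test against the endosperm alone. OsMADS1 passed only in the ovular vascular trace, where OsMADS29 did not pass. Inside the maternal tissues the genes had different places at that stage. OsMADS29 was higher in the nucellar epidermis than in the ovular vascular trace, while OsMADS13, OsMADS6 and OsMADS1 were higher in the ovular vascular trace.

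MIKC proteins bind DNA as dimers and larger complexes, and combinations of their classes specify the identity of floral organs. Class C genes act in stamens, carpels and the arrest of the floral meristem, class D genes in the ovule, and class E (SEPALLATA-like) proteins join the other classes in shared complexes. Bsister genes act in the tissues around the embryo sac, and AGL6-like genes act in the floral meristem and several organs. In the cereal grain the nucellus breaks down after fertilization while the endosperm, a product of the fertilization, fills, so the maternal and the filial tissues lie side by side but differ in origin.

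The study asked which genes act in which sub-region of the developing grain. Grains of wild-type rice (Oryza sativa cv. Nipponbare, grown in hydroponic culture) were taken at 4, 8 and 16 DAF, and cross cells (CC), nucellar epidermis (NE), ovular vascular trace (OVT) and endosperm (EN) were cut out by laser; the aleurone layer (AL) was taken at 16 DAF only. CC, NE and OVT are maternal tissues and EN and AL are filial. The 28 libraries make up 13 groups. There are 3 libraries in NE of every stage, OVT of 4 DAF and AL, and 2 in the early and late CC, the OVT of 8 DAF and the later stages of EN, and the remaining 3 groups (EN at 4 DAF, CC at 8 DAF, OVT at 16 DAF) hold a lone library that is assumed to vary like the others. All plants carried the same genotype and no treatment, each preparation pooled 3 grains, and the cDNA was amplified by PCR. Libraries are named below by the MM number of their title. Nothing in the labels says which libraries came from separate plants, so p-values measure the spread between these libraries, which may be partly technical. The paper states that replicates with low correlation were left out. The spread between the libraries kept may therefore be too small, and the p-values with it.

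Values are the signal of the deposited table, that is read numbers multiplied by 1 factor per library. Orders and ranges of libraries below are those of this scale, and other factors can change them. For example, a further factor from the upper quartile was 4.517 in OVT at 16 DAF and 0.6847 in NE MM18 of 16 DAF, and TMM factors were 1.26 and 0.8838. The number of reads estimated from the steps between low values was 815284 to 97249910 per library (median 6868546), and 3 reads, the most that a value of 0 allows, were worth a signal of 0.132 to 33.4. Both cover counting error only. The library with the fewest estimated reads (815284) was CC at 8 DAF, where 3 reads were worth 28.5. NE MM17 of 16 DAF stood close to AL MM17 (correlation of the log2 values 0.99) and held all 3 NE markers at 0, so differences past the threshold that involve NE at 16 DAF are given with and without it. The NE markers were weak. At 16 DAF they summed to 6.84 in NE MM18, and NE MM04 (227.5) had 1 of 3 above 0, while EN at 4 DAF had all 3 (sum 4.72). OVT at 16 DAF had 4 of 5 OVT markers above 0 (summed signal 14979), all 9 CC markers at 0, a summed EN marker signal of 777038, and 9044 genes above 0, the fewest of all libraries. Its AL markers summed to 19969, with 2 of 3 above 0, against 8623 to 17781 in AL. EN at 4 DAF held 8 of 9 CC markers above 0 (sum 690.0) and an OVT marker sum of 308.7, against CC sums of 35.6 to 43.3 and OVT sums of 9.56 to 28.9 in EN at 8 DAF. Part of the markers were picked by the study on these same libraries. In bulk tissue, fewer cells of a type and less RNA per cell cannot be told apart.

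**Figure D1:**
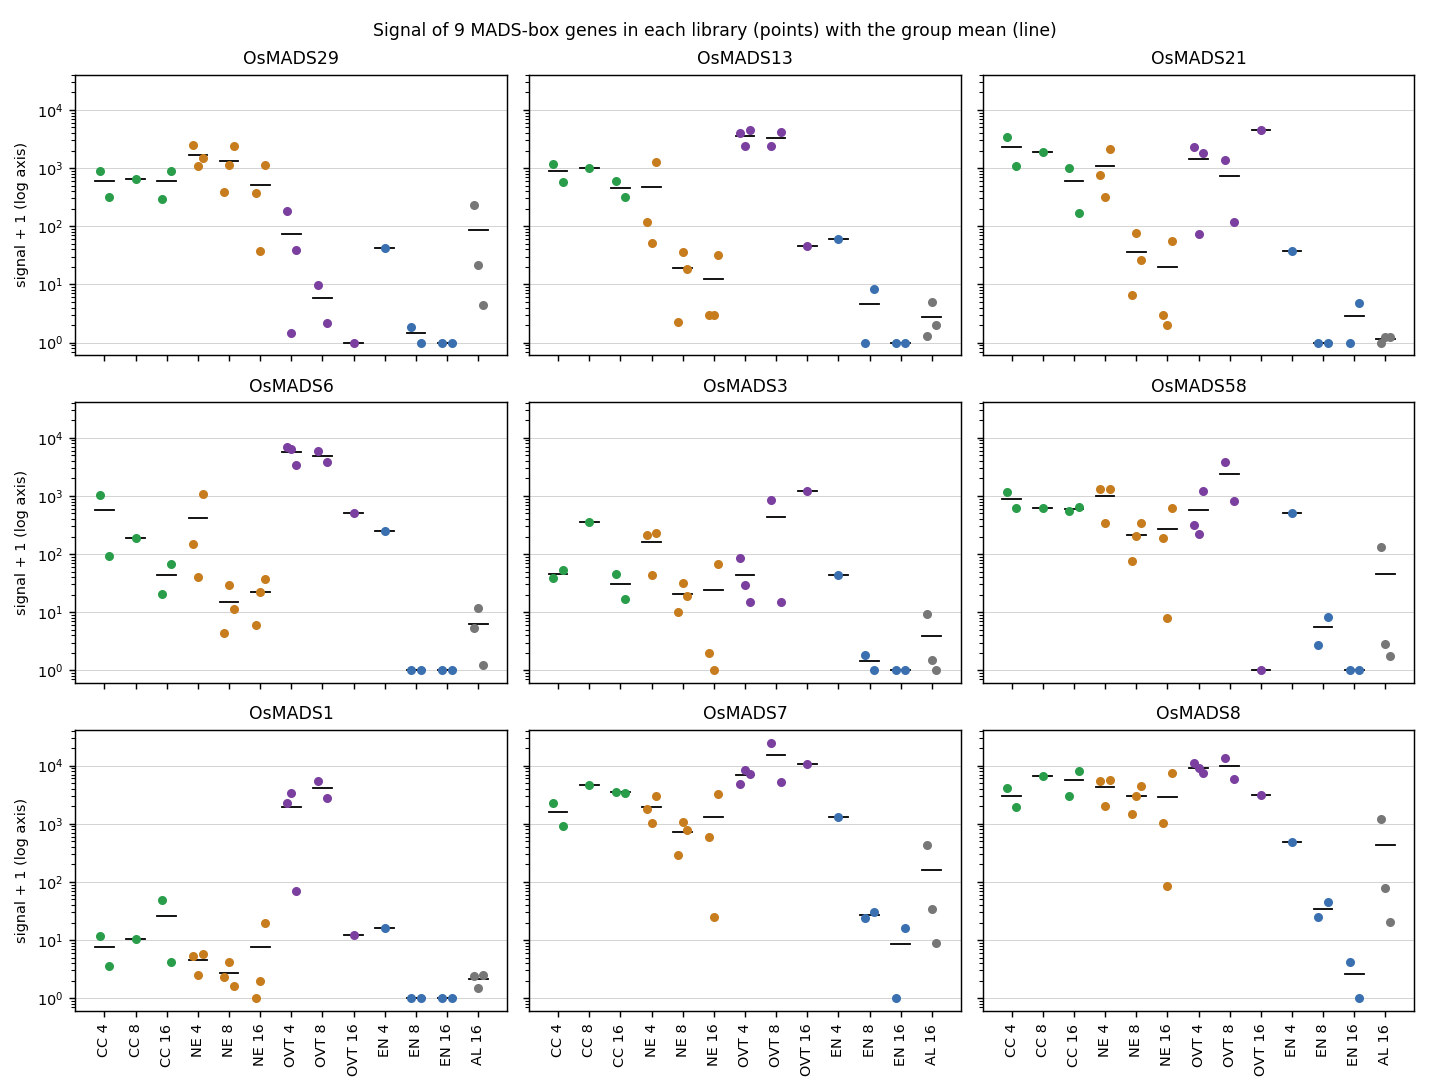
Signal of the 9 genes in each of the 28 libraries (points, vertical log axis of signal + 1) with the mean of each group (black line), for 13 groups named by tissue and days after flowering. OsMADS29 is at 35.8 to 2518 in the NE and CC libraries and at 178.3 or less in OVT, OsMADS1 is above 50 in OVT at 4 and 8 DAF only, and the EN libraries of 8 and 16 DAF lie at 43.3 or less for every gene.

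OsMADS29, the Bsister gene known in rice for the breakdown of the nucellus, had its highest values in NE. In NE it was at 1085, 1496 and 2518 at 4 DAF, at 393.2, 1145 and 2427 at 8 DAF, and at 35.8 (MM17), 377.5 (MM04) and 1115 (MM18) at 16 DAF. In CC it was at 311.5 and 895.8 at 4 DAF, at 637 at 8 DAF, and at 292.1 and 885.8 at 16 DAF. The CC libraries lay below all NE libraries at 4 DAF and inside the NE range at 8 and 16 DAF. In OVT it was at 0.479, 37.8 and 178.3 at 4 DAF, at 1.19 and 8.62 at 8 DAF and at 0 at 16 DAF. These OVT libraries lay below every NE library of their stage. EN held 40.9 at 4 DAF, 0 and 0.869 at 8 DAF and 0 in both libraries of 16 DAF, and AL held 3.37 (MM18), 20.9 (MM17) and 232.9 (MM04). In the order of the 13 group means (NE at 4 DAF, NE at 8 DAF, CC at 8, 4 and 16 DAF, NE at 16 DAF, AL, OVT at 4 DAF, EN at 4 DAF, OVT at 8 DAF, EN at 8 DAF, OVT at 16 DAF, EN at 16 DAF), every neighbour overlapped the next except at the steps into and out of OVT at 8 DAF.

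OVT held less OsMADS29 than NE at all 3 stages. On the log2(value + 10) scale, which understates the difference of low genes, the difference was −5.14 ± 1.13 (SE; adjusted p = 0.00424, limma) at 4 DAF, −6.18 ± 1.27 (adjusted p = 0.00318) at 8 DAF and −4.76 ± 1.60 (adjusted p = 0.0403) at 16 DAF, where the OVT side is a lone library at 0. With 3 reads in that library worth 33.4, the NE mean of 509.4 was at least 15.3-fold higher. The difference at 16 DAF was −6.04 (adjusted p = 0.00819) without NE MM17, and it no longer passed without NE MM04 (−4.50, adjusted p = 0.0828) or NE MM18 (−3.73, adjusted p = 0.119). Voom gave −6.76, −7.47 and −6.81 at the 3 stages, none past the threshold (adjusted p = 0.123, 0.119 and 0.158). NE exceeded EN at 8 DAF by 6.64 ± 1.27 (adjusted p = 0.00371) and at 16 DAF by 4.76 ± 1.27 (adjusted p = 0.0168), the latter with EN at 0 and a bound of at least 44.3-fold. At 8 DAF it did not pass without EN MM20 (adjusted p = 0.057) or EN MM22 (adjusted p = 0.0623). At 16 DAF it was 6.04 (adjusted p = 0.00331) without NE MM17 and did not pass without NE MM04, NE MM18 or either EN library (adjusted p = 0.0577 to 0.0843). NE minus CC gave 1.58 ± 1.27, 0.69 ± 1.60 and −0.94 ± 1.27 at 4, 8 and 16 DAF, and none of these passed (adjusted p = 1, 0.963 and 0.892).

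OsMADS13, the class D gene known in rice for ovule identity, was highest in OVT at 4 and 8 DAF. It was at 2378, 3958 and 4441 in OVT at 4 DAF and at 2435 and 4239 at 8 DAF, and the lone library of 16 DAF held 44.5. CC held 586.1 and 1181 at 4 DAF, 988.8 at 8 DAF and 311.3 and 601.1 at 16 DAF. All 5 OVT libraries of 4 and 8 DAF were above every other library of the series. NE held 50.7 (MM05), 118.9 (MM13) and 1247 (MM06) at 4 DAF, then 1.3, 17.5 and 34.5 (8 DAF), then 2, 2.01 and 30.4 (16 DAF). NE MM06 of 4 DAF, which stands apart here, also had the highest sums of CC markers (5724 against 1673 and 1942) and OVT markers (616.2 against 143.3 and 158.3) of its group, and the part of these in its OsMADS13 value was not tested. EN held 59.2 at 4 DAF, 0 and 7.22 at 8 DAF and 0 in both libraries of 16 DAF, and AL held 0.308, 1.01 and 3.92. The group means ran from OVT at 4 DAF and OVT at 8 DAF, which overlap, over CC at 8 and 4 DAF, NE at 4 DAF and CC at 16 DAF to the low groups. OVT at 8 DAF did not overlap CC at 8 DAF, CC at 16 DAF did not overlap EN at 4 DAF, and the lone EN and OVT libraries below them overlapped no neighbour.

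OsMADS13 was higher in OVT than in NE by 4.02 ± 0.87 (SE; adjusted p = 0.00353, limma) at 4 DAF and by 7.07 ± 0.97 (adjusted p = 3.25e-05) at 8 DAF. At 16 DAF the same difference was 1.60 ± 1.23 (adjusted p = 0.445). It was lower in NE than in CC by −5.38 ± 1.23 at 8 DAF (adjusted p = 0.00706) and by −4.62 ± 0.97 at 16 DAF (adjusted p = 0.0145), while at 4 DAF the difference of −1.98 ± 0.97 did not pass (adjusted p = 0.819). Without NE MM17 the value at 16 DAF was −4.33 (adjusted p = 0.0698), and with voom the value at 8 DAF was −6.95 (adjusted p = 0.072). Within NE, the level fell by 3.57 ± 0.87 from 4 to 16 DAF (adjusted p = 0.0131), a difference of −3.28 without NE MM17 (adjusted p = 0.053) or NE MM04 (adjusted p = 0.0761) and of −2.30 (adjusted p = 0.116) without NE MM06 of 4 DAF, the library that stands apart.

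OsMADS21, the other class D gene of rice, had a wider spread over the maternal tissues. Its highest value, 4515, was in the OVT library of 16 DAF, and the OVT libraries of 4 DAF held 71.5 (MM05), 1850 (MM06) and 2316 (MM13) and those of 8 DAF 119.0 (MM22) and 1363 (MM21). CC held 1103 and 3442 at 4 DAF, 1873 at 8 DAF and 166.9 and 1007 at 16 DAF. OVT and CC overlapped at 4 DAF. NE held 316.5, 756.8 and 2153 at 4 DAF, then 5.48, 25.2 and 75.2 (8 DAF), then 1.01, 2 and 53.7 (16 DAF). The NE libraries of 4 DAF were therefore all above those of 8 and 16 DAF. EN held 37.2 at 4 DAF, 0 in both libraries of 8 DAF and 0 and 3.83 at 16 DAF, and AL held 0 to 0.261. From OVT at 16 DAF down, the order of means was CC at 4 DAF, CC at 8 DAF, OVT at 4 DAF, NE at 4 DAF, OVT at 8 DAF and CC at 16 DAF, each overlapping the next except the step at the top, and after a gap came EN at 4 DAF, NE at 8 DAF and the other groups.

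OsMADS21 in NE differed between 16 and 4 DAF by −5.32 ± 1.13 (SE; adjusted p = 0.00525, limma), and by −4.88 (adjusted p = 0.0291) without NE MM17. From 4 to 8 DAF the difference was −4.50 ± 1.13 (adjusted p = 0.069). It was lower in NE than in CC by −5.71 ± 1.60 at 8 DAF (adjusted p = 0.03), where CC is a lone library and the call was lost without NE MM20 (adjusted p = 0.0876) or NE MM22 (adjusted p = 0.0591), and −4.38 ± 1.27 at 16 DAF did not pass (adjusted p = 0.084). OVT minus NE was −0.21 ± 1.13 at 4 DAF and 3.55 ± 1.27 at 8 DAF, both short of the threshold (adjusted p = 1 and 0.0942). At 16 DAF it was 7.80 ± 1.60 (adjusted p = 0.00118), from the lone OVT library, and 7.35 (adjusted p = 0.0043) without NE MM17.

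OsMADS6, the AGL6-like gene known in rice for floral organ identity and the floral meristem, was a gene of OVT with lower values in the early CC and NE. OVT held 3444, 6319 and 7050 at 4 DAF, 3769 and 5953 at 8 DAF and 500.4 at 16 DAF. CC held 92.7 and 1034 at 4 DAF, 190.2 at 8 DAF and 19.3 and 67.4 at 16 DAF, and NE held 39.9 (MM05), 148.6 (MM13) and 1078 (MM06) at 4 DAF, then 3.39, 10.3 and 28.8 (8 DAF), then 5.01, 21.6 and 36.9 (16 DAF). As with OsMADS13, the 5 OVT libraries of 4 and 8 DAF lay above all others, and NE MM06 was the high NE library. EN was at 245.3 at 4 DAF and at 0 in all 4 libraries of 8 and 16 DAF, and AL was at 0.254, 4.31 and 11. The order of means was OVT at 4 DAF, OVT at 8 DAF, CC at 4 DAF, OVT at 16 DAF, NE at 4 DAF, EN at 4 DAF, CC at 8 DAF, CC at 16 DAF, NE at 16 DAF, NE at 8 DAF, AL and then EN at 8 and 16 DAF, with no overlap between OVT at 8 DAF and CC at 4 DAF.

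OsMADS6 was higher in OVT than in NE by 4.71 ± 0.93 (SE; adjusted p = 0.00161, limma) at 4 DAF, by 7.76 ± 1.04 (adjusted p = 2.44e-05) at 8 DAF and by 4.18 ± 1.32 (adjusted p = 0.0288) at 16 DAF. The last was 4.27 (adjusted p = 0.0402) without NE MM17 and did not pass without NE MM04 (3.73, adjusted p = 0.0717). It was also higher in OVT than in EN by 4.39 ± 1.32 (adjusted p = 0.0431) at 4 DAF and by 8.89 ± 1.14 (adjusted p = 1.35e-05) at 8 DAF. At 4 DAF that call was lost without OVT MM13 (adjusted p = 0.0831) or OVT MM05 (adjusted p = 0.0834). With 3 reads worth up to 21.6 in EN at 8 DAF, the OVT mean of 4861 was at least 224.5-fold higher there. No NE minus CC difference of OsMADS6 passed, and the values were −0.68 ± 1.04, −3.19 ± 1.32 and −0.76 ± 1.04 at 4, 8 and 16 DAF (adjusted p = 1, 0.172 and 0.898).

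OsMADS3 and OsMADS58 are the class C pair of rice, with OsMADS3 known mainly for stamens and OsMADS58 for the determinacy of the floral meristem. OsMADS3 was low in most libraries, and only 5 libraries were above 100. These were OVT at 16 DAF (1201), OVT MM21 of 8 DAF (862.2, against 13.7 in MM22), CC at 8 DAF (361.3) and NE MM13 and MM06 of 4 DAF (210.2 and 228.4, against 43 in MM05). Of the OVT libraries of 8 DAF, MM22 lay inside the NE range of that stage and MM21 above it. In the other groups OsMADS3 was at 37 and 51.9 in CC and 14, 27.9 and 83.5 in OVT at 4 DAF, at 9.13, 18.1 and 31.3 in NE at 8 DAF, and at 16.1 and 44.1 in CC and 0, 1 and 67.3 in NE at 16 DAF. EN held 42.5 at 4 DAF, 0 and 0.869 at 8 DAF and 0 at 16 DAF, and AL held 0 to 8.31. Apart from the maternal mean against EN, given further on, the OsMADS3 differences that passed were those of the lone libraries CC at 8 DAF and OVT at 16 DAF and of OVT at 8 DAF against EN. OVT minus NE was 5.89 ± 1.43 at 16 DAF (adjusted p = 0.00503, limma), or 5.38 (adjusted p = 0.0164) without NE MM17, and 2.35 ± 1.13 at 8 DAF (adjusted p = 0.229). The OsMADS3 values of OVT at 8 DAF turn on which library is used: without MM22, OVT minus NE was 4.96 (adjusted p = 0.00483), and without MM21 it was −0.25 (adjusted p = 1) and OVT minus EN was 1.18 (adjusted p = 0.734).

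Neither OVT minus NE nor NE minus CC passed for OsMADS58 at any stage with all libraries in the fit, and OVT was not tested against CC. It was at 342.6, 1319 and 1320 in NE, 614.6 and 1153 in CC and 218.6, 318.1 and 1201 in OVT at 4 DAF, and EN held 516.2. The EN library lay inside the NE and OVT ranges. At 8 DAF it was at 75.8, 204.2 and 347.6 in NE, 627.5 in CC, 828.3 and 3835 in OVT and 1.74 and 7.22 in EN. At 16 DAF it was at 542.7 and 646.7 in CC, 7.05 (MM17), 189.4 (MM04) and 620.1 (MM18) in NE, 0.761, 1.83 and 129.4 in AL, and 0 in OVT and in both EN libraries. The order of means began with OVT at 8 DAF, NE at 4 DAF, CC at 4, 8 and 16 DAF, OVT at 4 DAF and EN at 4 DAF, and every one of these overlapped the next. Without NE MM17, NE exceeded EN at 16 DAF by 5.15 (adjusted p = 0.00535, limma), while with it the difference was 3.69 ± 1.22 (adjusted p = 0.0528). Likewise OVT minus NE at 16 DAF was −3.69 ± 1.54 (adjusted p = 0.105) with it and −5.15 (adjusted p = 0.0127) without it.

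OsMADS1, a class E gene known in rice for the lemma, the palea and the floral meristem, had its 5 highest libraries in OVT at 4 and 8 DAF. OVT held 67.6 (MM06), 2310 (MM13) and 3333 (MM05) at 4 DAF and 2757 (MM22) and 5342 (MM21) at 8 DAF. The next highest library was CC MM17 of 16 DAF at 46.9, so OVT MM06 of 4 DAF stood much nearer to it than to the other OVT libraries. The OVT library of 16 DAF held 11.1, the worth of 1 read. CC otherwise held 2.55 to 10.7, EN 15.2 at 4 DAF and 0 in the 4 later libraries, AL 0.522 to 1.52, and NE 0 to 18.6 over its 9 libraries. OsMADS1 was higher in OVT than in NE by 5.97 ± 0.95 (SE; adjusted p = 0.000148, limma) at 4 DAF and by 8.37 ± 1.07 (adjusted p = 1.22e-05) at 8 DAF, and higher in OVT than in EN by 5.07 ± 1.35 (adjusted p = 0.0213) and 8.59 ± 1.17 (adjusted p = 2.73e-05) at these stages. Against EN at 4 DAF it did not pass without OVT MM13 (adjusted p = 0.0575) or OVT MM05 (adjusted p = 0.0653). With EN at 0 at 8 DAF, OVT was at least 187.0-fold higher. At 16 DAF OVT minus NE was 0.53 ± 1.35 (adjusted p = 0.932), with a signal of 33.4 for 3 reads of the OVT library.

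OsMADS7 and OsMADS8, the SEPALLATA-like pair known in rice for the inner floral organs and flowering time, held the highest signal per kilobase of the 9 genes in all 28 libraries, OsMADS8 in 19 and OsMADS7 in 9. OsMADS7 held 4861, 7235 and 8432 in OVT at 4 DAF, 5296 (MM22) and 24470 (MM21) at 8 DAF and 10790 at 16 DAF. CC held 907.7 and 2308 at 4 DAF, 4545 at 8 DAF and 3402 and 3554 at 16 DAF, and NE held 1015, 1780 and 2938, then 283.2, 779.2 and 1054, then 24.2 (MM17), 585.8 (MM04) and 3288 (MM18). On the deposited scale every OVT library lay above every CC and NE library, with the values of OVT at 4 DAF starting just over CC at 8 DAF. Upper-quartile factors would not keep this order. EN held 1308 at 4 DAF, then 22.6 and 28.9, then 0 and 15.3 in the last stage, and AL held 7.87, 33.2 and 435.9. OVT exceeded NE by 4.18 ± 1.27 at 8 DAF (adjusted p = 0.0476, limma) and by 4.73 ± 1.61 at 16 DAF (adjusted p = 0.0428). At 8 DAF the call was lost without any 1 NE library (adjusted p = 0.145, 0.0712 and 0.0898) or OVT MM21 (3.08, adjusted p = 0.416), and at 16 DAF without NE MM04 (5.01, adjusted p = 0.0568) or NE MM17 (2.95, adjusted p = 0.144). At 4 DAF the difference was 1.93 ± 1.14 (adjusted p = 0.379).

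OsMADS8 held 7484, 8960 and 10860 in OVT at 4 DAF, 5811 and 13570 at 8 DAF and 3091 at 16 DAF. CC held 1911 and 4185, 6485, and 3049 and 8175 at the 3 stages, and NE held 1997, 5369 and 5596 at 4 DAF, 1475, 2984 and 4535 at 8 DAF and 83.6 (MM17), 1020 (MM04) and 7399 (MM18) at 16 DAF. The 3 maternal tissues overlapped at 16 DAF, and OVT lay above NE at 4 and 8 DAF without passing the test. OVT minus NE was 1.20 ± 1.12, 1.71 ± 1.26 and 1.79 ± 1.59 at 4, 8 and 16 DAF (adjusted p = 0.643, 0.479 and 0.53, limma). EN held 479.5 at 4 DAF, then 24.3 and 43.3, then 0 and 3.26 in the last stage, and AL held 19.3 (MM18), 77.3 (MM17) and 1214 (MM04). NE exceeded EN by 5.99 ± 1.26 at 8 DAF (adjusted p = 0.00737) and by 6.28 ± 1.26 at 16 DAF (adjusted p = 0.0022), the latter 7.91 (adjusted p = 0.000131) without NE MM17. At 8 DAF it did not pass without EN MM20 (adjusted p = 0.119) or EN MM22 (adjusted p = 0.0742).

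The main comparison set the mean of CC, NE and OVT against EN at each stage. At 8 DAF all 9 genes were higher in the maternal mean at an adjusted p under 0.05, against 7.44% of all genes tested. The difference was 6.98 ± 1.15 (SE; adjusted p = 0.000434, limma) for OsMADS8, 6.49 ± 1.17 (adjusted p = 0.000903) for OsMADS7, 5.40 ± 1.12 (adjusted p = 0.00283) for OsMADS58 and 5.02 ± 0.89 (adjusted p = 0.000777) for OsMADS13. It was between 3.26 and 4.93 for the other 5 genes, with OsMADS1 the lowest (3.26 ± 0.98, adjusted p = 0.0286). The maternal and EN libraries did not overlap for 8 of the 9 genes, against 7.73% of all genes. The exception was OsMADS13, for which NE MM20 (1.3) lay below EN MM22 (7.22). The depth of EN limits this separation, since 3 reads were worth 2.61 in EN MM20 and 21.6 in EN MM22. For OsMADS1 the CC library (9.51) and all NE libraries (0.647 to 3.13) lay under 21.6. Some maternal values of OsMADS29, OsMADS21, OsMADS6 and OsMADS3 did so too. The median difference of the 9 genes was 4.93, and 5.40 with the 3 genes at 0 in EN set to their bounds, against a median of 0.08 over all genes. The call depends on the EN pair: without EN MM20 or without EN MM22, 4 of the 9 genes passed in each case. With the title number as a block, 3 passed (OsMADS13, OsMADS7 and OsMADS8). A fit of voom to estimated reads called 2 of 9, OsMADS13 and OsMADS6, with all 9 differences still above 0.

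At 16 DAF 7 of the 9 genes were higher in the maternal mean, against 8.43% of all genes. OsMADS8 (7.70 ± 1.15, adjusted p = 5.70e-05, limma) and OsMADS7 (7.29 ± 1.17, adjusted p = 0.000122) differed most, followed by OsMADS21 (4.85 ± 1.16, adjusted p = 0.00512), OsMADS29 (3.49 ± 1.16, adjusted p = 0.0414), OsMADS3 (3.29 ± 1.04, adjusted p = 0.0307), OsMADS6 (3.14 ± 0.96, adjusted p = 0.0251) and OsMADS13 (2.92 ± 0.89, adjusted p = 0.0249). OsMADS58 (3.20 ± 1.12, adjusted p = 0.0537) and OsMADS1 (1.03 ± 0.98, adjusted p = 0.599) did not pass. The median of the 9 was 3.29, or 4.85 with the 6 genes at 0 in EN at their bounds, against 0.20 over all genes. Without the OVT library, which a table of the study marks as left out while its methods and the label keep it, 5 genes passed: OsMADS21, OsMADS6 and OsMADS3 no longer did (2.98, 1.87 and 1.47, adjusted p = 0.0943, 0.218 and 0.399), and OsMADS58 did (4.80, adjusted p = 0.00599). Leaving out EN MM17 left 2 and leaving out EN MM18 left 3 of the genes, leaving out NE MM17 gave 8, and voom gave 4.

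At 4 DAF, with a lone EN library, 0 of the 9 genes passed in limma, against 0.556% of all genes. At an unadjusted p under 0.05 there were 3, against 6.36% of all genes: OsMADS13 (3.63 ± 1.13, adjusted p = 0.0977), OsMADS21 (4.46 ± 1.48, adjusted p = 0.128) and OsMADS8 (3.25 ± 1.46, adjusted p = 0.32), and voom called 0. All 9 differences were above 0, with a median of 1.48 against 0.12 over all genes. They were 0.40 ± 1.32 for OsMADS3, 0.39 ± 1.42 for OsMADS58 and 0.97 ± 1.48 for OsMADS7, with EN values of 42.5, 516.2 and 1308 inside the maternal range. Without NE MM05, or without OVT MM05, 1 gene passed. The CC and OVT markers of this EN library summed to 690.0 and 308.7, against 17676 to 20271 in CC and 41537 to 42823 in OVT of the same stage, and their part in these EN values was not tested. EN MM13 held all 9 genes above 0, and the EN libraries of 8 and 16 DAF held 4 to 8 of the 9 at 0.

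**Figure D2:**
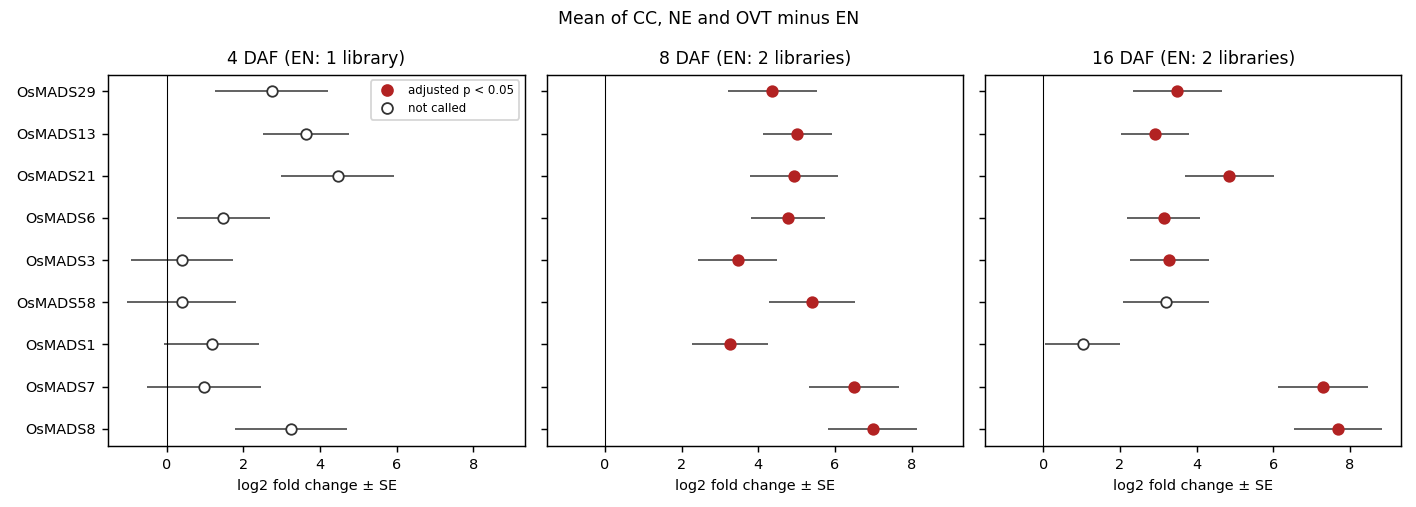
Difference between the mean of CC, NE and OVT and EN on the log2(value + 10) scale (points, horizontal axis) with its SE (lines) for the 9 genes at 4, 8 and 16 DAF; filled points passed an adjusted p of 0.05. All points lie above 0: none is filled at 4 DAF, 9 at 8 DAF and 7 at 16 DAF.

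Each maternal tissue was also tested alone against EN. The lone CC library of 8 DAF had the fewest estimated reads of all, and OsMADS6 and OsMADS3 were at 20 and 38 reads in it. A gene that did not pass is not thereby missing from the tissue: OsMADS58 in NE at 8 DAF, at 75.8 to 347.6 against 1.74 and 7.22 in EN, did not pass. In CC, 0 genes passed at 4 DAF (0.926% of all genes; unadjusted 2 against 6.83%, voom 0), 8 at 8 DAF (9.51%) and 6 at 16 DAF (7.7%; OsMADS29, OsMADS13, OsMADS21, OsMADS58, OsMADS7 and OsMADS8), and the gene missing at 8 DAF was OsMADS1 (0.96 ± 1.43, adjusted p = 0.852, limma). The 8 in CC rest on its lone library of 8 DAF, and without EN MM20 or without EN MM22, 4 passed. In NE, 0 passed at 4 DAF (0.378% of all genes; unadjusted 2 against 5.17%, voom 0), 2 at 8 DAF (2.13%), OsMADS29 and OsMADS8, and 3 at 16 DAF (6.68%), these and OsMADS7 (4.67 ± 1.27, adjusted p = 0.0192; 6.46, adjusted p = 0.000592 without NE MM17). Without EN MM20 or without EN MM22, 0 passed in NE at 8 DAF. At 16 DAF, 4 passed without NE MM17, and 1 each without NE MM04, NE MM18 or EN MM17. In OVT, 3 passed at 4 DAF (3.4% of all genes), 8 at 8 DAF (6.64%) and 5 at 16 DAF (9.78%; OsMADS21, OsMADS6, OsMADS3, OsMADS7 and OsMADS8). Those of 4 DAF were OsMADS13 (5.65 ± 1.23, adjusted p = 0.00469), OsMADS6 and OsMADS1, with 1 left, OsMADS13, without OVT MM13. OsMADS29 was the gene of OVT that did not pass at 8 DAF (0.47 ± 1.39, adjusted p = 1). The OVT values of 8 DAF were 7.94 ± 1.06 for OsMADS13 (adjusted p = 2.29e-05), 8.32 ± 1.39 for OsMADS7 (adjusted p = 0.0003) and 6.98 ± 1.34 for OsMADS58 (adjusted p = 0.0011).

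Between OVT and NE the genes split. Higher in OVT were 3 genes at 4 DAF (OsMADS13, OsMADS6, OsMADS1; 4.52% of all genes), 4 at 8 DAF (these and OsMADS7; 3.91%) and 4 at 16 DAF (OsMADS21, OsMADS6, OsMADS3, OsMADS7; 7.97%). Lower in OVT was 1 gene at each stage, OsMADS29, against 3.07%, 2.86% and 9.78% of all genes. OsMADS13 and OsMADS1 passed at 4 and 8 DAF, and their single OVT library of 16 DAF read 44.5 and 11.1 where 3 reads were worth 33.4. The EN markers of this library summed to 777038, against 6612 to 305576 in NE of 16 DAF. Its AL markers summed to 19969, against 1450 to 15338 in those NE libraries. The part of either tissue in the differences was not tested. A fit of only the groups compared called 0 genes at 4 DAF and 2 at 8 DAF (OsMADS6 and OsMADS1), and without NE MM04 2 passed at 16 DAF.

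NE was lower than CC for some of the same genes. At 4 DAF 0 passed in limma (0.995% of all genes; 0 at an unadjusted p under 0.05 against 5.56%, voom 0), at 8 DAF 2, OsMADS13 and OsMADS21 (5.27%), and at 16 DAF 1, OsMADS13 (1.14%). At 8 DAF 8 of 9 and at 16 DAF 9 of 9 differences were below 0, with OsMADS29 the exception at 8 DAF. Leaving out NE MM20 or NE MM22 left 1 gene at 8 DAF. Leaving out any of NE MM04, NE MM17 or CC MM17 left 0 at 16 DAF, and leaving out NE MM18 left 3. Same-numbered CC and NE libraries deviated together in all 4 pairs (correlation 0.105 to 0.209). With 2 CC libraries in a stage, their deviations from the mean mirror each other, so these pairs are not independent. With the number as a block in limma, 1 gene passed at 8 DAF, OsMADS13, and 0 at 16 DAF (OsMADS13 −4.43, adjusted p = 0.0513).

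**Figure D3:**
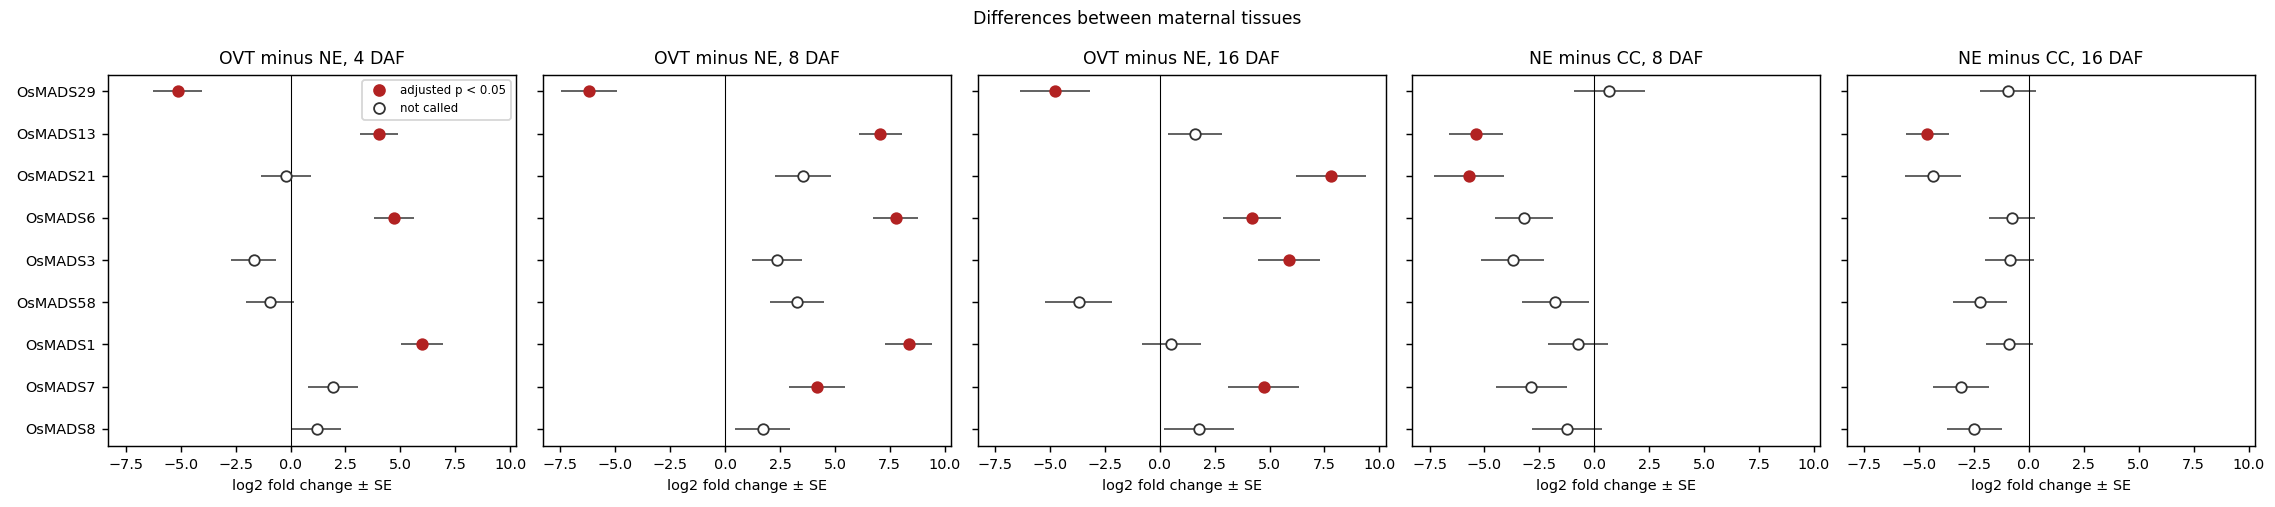
Differences between maternal tissues on the log2(value + 10) scale (points) with their SE (lines) for the 9 genes, OVT minus NE at 4, 8 and 16 DAF and NE minus CC at 8 and 16 DAF; filled points passed an adjusted p of 0.05. OsMADS29 lies at −5.14, −6.18 and −4.76 in the OVT minus NE panels, opposite to OsMADS13, OsMADS6 and OsMADS1 at 4 and 8 DAF.

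AL is the other filial tissue. Compared with EN at 16 DAF, 0 of 9 passed in limma (6.62% of all genes were higher; unadjusted 1 against 16.7%, voom 0), with OsMADS8 the nearest at 3.67 ± 1.26 (adjusted p = 0.0626). The AL libraries were unequal. MM04 held 232.9 of OsMADS29, 129.4 of OsMADS58, 435.9 of OsMADS7 and 1214 of OsMADS8, and MM18 held 3.37, 0.761, 7.87 and 19.3. Their EN markers summed to 13416 in MM04, 315493 in MM17 and 213867 in MM18. EN MM18 of 16 DAF held all 3 AL markers above 0 (sum 5886), against a sum of 13 in EN MM17. The part of EN cells in AL, or of AL cells in EN, was not tested. The OsMADS8 value of AL MM04 lay above those of NE MM04 (1020) and NE MM17 (83.6). Leaving out AL MM18 brought 1 gene past the threshold. NE minus AL gave 0 calls (0% of all genes), 4 at an unadjusted p under 0.05 against 1.65% of all genes (OsMADS29, OsMADS58, OsMADS7 and OsMADS8) and 0 with voom. All 9 NE minus AL differences were above 0, at 0.40 to 2.61, and without NE MM17 1 gene passed, OsMADS7 (4.32, adjusted p = 0.0486). NE MM17 held 35.8 of OsMADS29, 24.2 of OsMADS7 and 83.6 of OsMADS8, and AL MM17 held 20.9, 33.2 and 77.3. The AL markers summed to 15338 in NE MM17, 8307 in NE MM04 and 1450 in NE MM18, against 8623 to 17781 in AL. The order of these NE libraries in OsMADS29, OsMADS58, OsMADS7 and OsMADS8 was the reverse (lowest in MM17, highest in MM18). OsMADS6 was lowest in MM04 (5.01). OsMADS13, OsMADS21, OsMADS3 and OsMADS1 were also highest in MM18, and they held 0 to 4 estimated reads in MM04 and MM17, too few to order these 2 libraries. The AL marker sum is not particular to AL. At 4 DAF, when no AL was taken, it was 1330 to 7271 in NE and 1218 to 2916 in CC. The AL marker Os02g0181300 was at 0 in NE MM18 of 16 DAF. In NE at 8 DAF the AL markers summed to 2559 (MM20), 13902 (MM21) and 11327 (MM22, with Os02g0181300 at 0). There OsMADS29 was at 393.2, 1145 and 2427, lowest in the library with the lowest AL marker sum. The CC markers summed to 68.6, 237.4 and 296.1 in these libraries and the EN markers to 82757, 18287 and 11542. At 16 DAF the CC sums were 79.1 (MM17), 585.8 (MM04) and 716.9 (MM18), and the EN sums 305576, 65340 and 6612. OsMADS29 had the order of the CC sums and the reverse of the EN sums at 8 and 16 DAF. At 4 DAF it had neither, with its highest value and the highest EN sum (29803) both in MM13. The part of AL, CC or EN cells in these values was not tested.

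Of the stage comparisons, those of NE from 4 to 16 DAF held calls. In NE from 4 to 8 DAF 0 genes passed in limma (0.396% of all genes were lower; unadjusted 4 against 6.64%, voom 0), though all 9 differences were below 0. From 4 to 16 DAF 2 passed (4.26%), OsMADS13 and OsMADS21. OsMADS6 (−2.86 ± 0.93, adjusted p = 0.063) and OsMADS3 (−2.78 ± 1.01, adjusted p = 0.0964) did not pass. The count was 6 without NE MM18 and 1 without NE MM04, NE MM17 or NE MM06 of 4 DAF, and 3 passed from 4 to 8 DAF without NE MM05. In OVT 0 passed from 4 to 8 DAF (0.443%; unadjusted 0 against 5.23%, voom 0), in CC 0 from 4 to 16 DAF (2%; unadjusted 1, OsMADS6, against 11.6%, voom 0) and in EN 0 from 8 to 16 DAF (0.945%; unadjusted 0 against 6.9%, voom 0). OVT differences from 4 to 8 DAF were −0.11 ± 0.97 for OsMADS13 and −0.18 ± 1.04 for OsMADS6, against −3.16 ± 0.87 and −3.22 ± 0.93 in NE. The test of that difference between the tissues gave 0 calls (0.127%; unadjusted 5 against 5.21%, voom 0), with 3.05 ± 1.30 (adjusted p = 0.407) for OsMADS13 and 3.05 ± 1.40 (adjusted p = 0.445) for OsMADS6. Without OVT MM22 of 8 DAF, OsMADS3 passed both in OVT from 4 to 8 DAF (4.31, adjusted p = 0.0175) and in the difference between the tissues (6.63, adjusted p = 0.00617). The change from 4 to 16 DAF in CC against NE likewise gave 0 (0.0291%; unadjusted 0 against 2.56%, voom 0), with 3.12 ± 1.79 (adjusted p = 0.742) for OsMADS21 as an example. These intervals are wide, and they do not show that the tissues changed alike.

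Paralogs were compared per kilobase of the gene length given in the table. How reads that match several genes were treated is not given in the sources used here, so a share of the reads of a pair may be misplaced between its members. OsMADS8 exceeded OsMADS7 in 18 of the 27 libraries with either gene above 3 reads, among them all 9 NE and all 3 AL libraries, where the ratio of OsMADS7 to OsMADS8 was 0.196 to 0.654. OsMADS7 exceeded OsMADS8 in the other 9, among them 5 of the 6 OVT libraries. The ratio reached 3.98 in OVT at 16 DAF, 3.11 in EN at 4 DAF and 2.05 in OVT MM21 of 8 DAF, and it was 1.04, 1.07 and 1.1 in 3 further OVT libraries and 0.51 in MM13 of 4 DAF. OsMADS58 exceeded OsMADS3 in 22 of 23 libraries, the exception being OVT at 16 DAF with OsMADS3 at 1201 and OsMADS58 at 0. OsMADS13 exceeded OsMADS21 in 11 of 23 libraries and was below it in 12. It was 1.98 to 41.3 times OsMADS21 in the 5 OVT libraries of 4 and 8 DAF, and 0.0114 times it in OVT at 16 DAF. In CC of 4 and 8 DAF and NE of 4 and 8 DAF OsMADS21 was the higher one in every library, with ratios of 0.182 to 0.802.

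**Figure D4:**
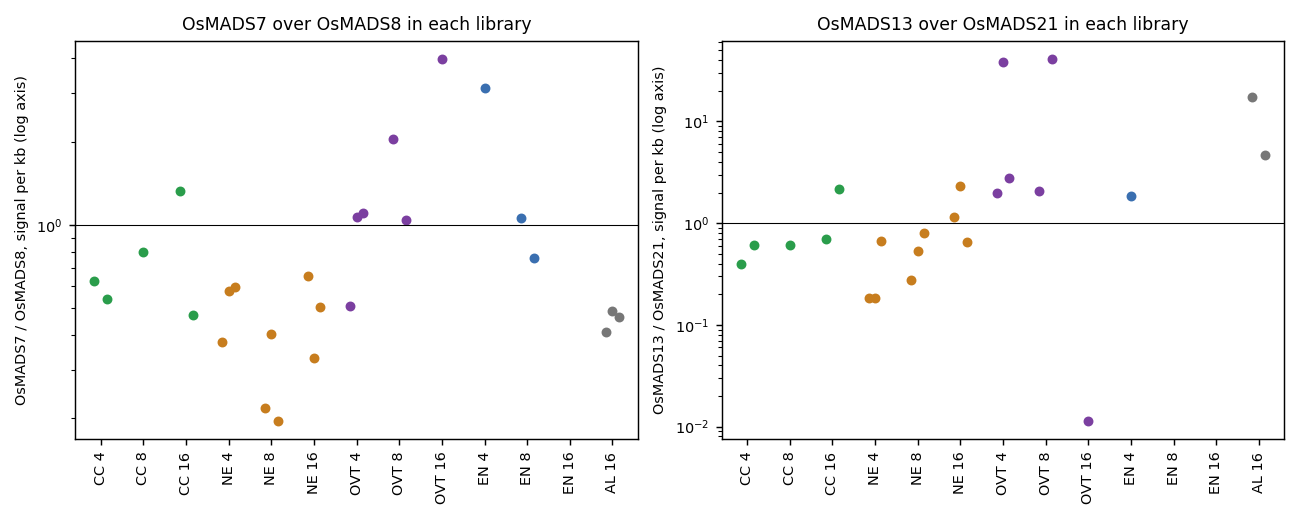
Ratio of OsMADS7 to OsMADS8 (left) and of OsMADS13 to OsMADS21 (right), each in signal per kilobase, in every library where both genes are above 0 (points, log axes; the line marks a ratio of 1). The NE libraries lie at 0.196 to 0.654 for OsMADS7 to OsMADS8, and the OVT libraries of 4 and 8 DAF lie at 1.98 or more for OsMADS13 to OsMADS21.

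Across the 13 group means of log2(value + 10), which share their libraries, the closest pair of the 9 was OsMADS7 and OsMADS8 (Pearson r = 0.94, Spearman rho = 0.92). OsMADS13 and OsMADS6 followed with r = 0.86, OsMADS21 and OsMADS3 with 0.86, OsMADS21 and OsMADS7 with 0.85, OsMADS6 and OsMADS7 with 0.84, and OsMADS6 and OsMADS1 with 0.82. OsMADS29 stood apart, with r of −0.29 to 0.59 to the other 8. Among 17700 further genes with a group mean above 100, the one most like OsMADS29 was Os05g0366900 (r = 0.978), at 3576 in NE at 4 DAF and 70.3 in OVT at 8 DAF. The genes most like OsMADS1 were Os06g0294000 (r = 0.987), Os01g0935000 and Os05g0142400 (both 0.984), which were at 0 in every group mean of CC and NE and at 413.5, 119.0 and 665.4 in OVT at 8 DAF. For the others the most alike were Os03g0161200 for OsMADS13 (r = 0.963), Os03g0431100 for OsMADS21 (0.957), Os04g0542800 for OsMADS6 (0.917), Os01g0275300 for OsMADS3 (0.956), Os02g0562700 for OsMADS58 (0.985), Os02g0143100 for OsMADS7 (0.940) and Os06g0602400 for OsMADS8 (0.963). They were picked as the highest of many correlations, so their height is a description only.

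Other MIKC genes were read as a floral list of 12 identifiers (11 tested) and a vegetative list of 8 (7 tested). In the maternal mean against EN at 8 DAF, 1 of 11 floral genes was higher, Os07g0605200 (3.05 ± 1.01, adjusted p = 0.0463, limma), and the median was 1.40. Of all genes 7.44% were higher, so 1 of 11 is near that share. Of the vegetative list 0 of 7 were higher and 1 was lower (5.42% of all genes), Os02g0579600 (−3.67 ± 1.02, adjusted p = 0.0188, limma). The median was −0.48, beside the 9 of 9 and 4.93 of the genes above. By tissue at 8 DAF, 5 of 11 floral genes were higher than EN in OVT (6.64% of all genes). In CC it was 1 (9.51%) and in NE 0 (2.13%). Of the 7 vegetative genes, 1 was higher and 1 lower in OVT (6.64% and 4.97% of all genes). Os02g0579600 was at 201.9 in EN at 8 DAF and 2612 in EN at 16 DAF, against 160.0 in NE at 16 DAF. At 16 DAF 2 floral genes were higher (median 1.05, against 8.43% of all genes higher). On the vegetative list 2 genes were lower (median 0.31, against 7.64% of all genes lower), among them Os02g0579600 (−6.42 ± 1.02, adjusted p = 0.00011, limma). The others, named after their values were seen, were Os01g0883100 (6.25 ± 1.13, adjusted p = 0.000439), Os04g0580700 (4.65 ± 1.11, adjusted p = 0.00485) and Os02g0761000 (−3.49 ± 0.99, adjusted p = 0.016). At 4 DAF 1 floral gene was lower, Os04g0614100 (−2.92 ± 0.34, adjusted p = 4.95e-06), named after its value was seen, and none of the vegetative list passed. Of all genes, 1.86% were lower in the maternal mean at 4 DAF. Between OVT and NE, 4 floral and 2 vegetative genes were higher in OVT at 4 DAF (4.52% of all genes). At 8 DAF it was 2 and 1 (3.91%), and none was lower at either stage. Also named after their values were seen, Os06g0712700 and Os07g0108900 of the floral list and Os08g0112700 of the vegetative list were higher in OVT at both stages, by 6.13, 3.73 and 5.77 at 4 DAF and by 3.80, 3.40 and 4.19 at 8 DAF.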

How the data were processed

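Laser-cut tissues of rice grains were sequenced as 28 single-end libraries in 13 groups. Per the submitters' processing notes, reads were aligned with STAR to IRGSP-1.0 and edgeR was used, with no versions given in the sources used here. The deposited values are a signal per gene: read numbers multiplied by the authors by 1 factor per library. Steps between low values gave whole reads (within 0.03) for 85.5 to 95.7% of low values per library, so no count test was run on the deposited values. The file holds 1 further signal column, which was not used.

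On the log2 scale, after adding 10, the signal was modelled by a mean for every group, using trended and robust empirical Bayes variances (limma version 3.58.1 under R version 4.3.3; statmod version 1.5.0; 15 residual degrees of freedom, median prior 8.87). The R package data.table (version 1.17.8) read the files. The test covered 27527 of 45990 genes, those that reached both a signal over 10 and 10 estimated reads in some library. Tests were two-sided, and Benjamini-Hochberg adjustment ran across the 27527 genes within each comparison, with 0.05 as the threshold. Steps were tested on simulated data. Summaries used Python 3.11.15, numpy 2.4.6, pandas 2.3.3 and matplotlib 3.10.9.

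By rule, the text names the 9 members and, of the other MIKC lists, the largest called genes of the maternal mean against EN at 8 DAF. The 3 genes most like each member were ranked by Pearson correlation over 13 group means. The members and lists were chosen with earlier results of these data known. Alternatives were other pseudocounts (1 and 30), no filter, TMM and upper-quartile factors, the title number as a block, the title letter as a covariate, a fit of the compared groups alone, voom, and leaving out libraries. CC MM05 of 4 DAF was grouped by its title, since its day label says 8 DAF. No sequence or coordinate is given, because the tables used here hold none for the build of the file.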

Additional observations from a re-analysis of the deposited data

How the results depend on the processing

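Counts here are of the 9 genes past an adjusted p of 0.05. Of 70 differences of single genes past the threshold, 6 passed under every alternative (OsMADS13 in the maternal mean against EN, OsMADS13, OsMADS6 and OsMADS1 in OVT against EN, and OsMADS6 and OsMADS1 in OVT against NE, all at 8 DAF), and none changed sign. A fit of only the groups compared lost 54, voom 41, upper-quartile factors 15, no filter 10, pseudocounts of 30 and 1 lost 7 and 6, TMM factors 6 and the title letter 3; the first has fewer libraries, and the causes of the others were not tested.

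With a pseudocount of 1 the count was 0 in OVT minus EN at 4 DAF, 1 in NE minus CC at 8 DAF, 5 in NE minus EN at 16 DAF and 1 in AL minus EN. With 30 it was 1 and 4 in the maternal mean against EN at 4 and 16 DAF. Without a filter it was 1 in NE minus CC at 8 DAF and 3 in OVT minus NE at 16 DAF. Upper-quartile factors gave 5 in CC minus EN and 0 in NE minus CC at 8 DAF, 4 in the maternal mean and 2 in OVT minus NE at 16 DAF, and 1 in AL minus EN; TMM factors gave 1 in NE minus CC at 8 DAF and 1 in AL minus EN. The title letter gave 1 in NE from 4 to 16 DAF. The compared groups alone gave 1 in the maternal mean and 0 in OVT minus NE at 4 DAF, 1 in CC minus EN, 1 in NE minus EN, 4 in OVT minus EN, 2 in OVT minus NE and 0 in NE minus CC at 8 DAF, 0 in all 6 maternal comparisons at 16 DAF, and 0 in NE from 4 to 16 DAF. Voom gave 2 in the maternal mean, 1 in CC minus EN, 0 in NE minus EN, 3 in OVT minus EN, 3 in OVT minus NE and 0 in NE minus CC at 8 DAF, 4, 3, 3 and 2 in the maternal mean, CC minus EN, OVT minus EN and OVT minus NE at 16 DAF, and 1 in NE from 4 to 16 DAF. With NE and AL MM17 both left out, chosen after seeing the data, it was 0 in NE minus CC, 1 in AL minus EN and 1 in NE from 4 to 16 DAF.

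Leaving out 1 library at a time gave 0 to 1 in the maternal mean at 4 DAF, 4 to 9 at 8 DAF and 2 to 8 at 16 DAF; 1 to 3 in OVT minus EN at 4 DAF; 4 in CC minus EN and 0 to 2 in NE minus EN at 8 DAF; 1 to 4 in NE minus EN at 16 DAF; 4 to 7 and 2 to 5 in OVT minus NE, and 1 to 2 and 0 to 3 in NE minus CC, at 8 and 16 DAF; 0 to 1 in AL minus EN and in NE minus AL; 0 to 3 and 1 to 6 in NE from 4 to 8 and to 16 DAF; and 0 to 1 in OVT from 4 to 8 DAF and in its difference from NE. Without OVT MM21, OsMADS3 turned to −0.25 in OVT minus NE at 8 DAF and to −0.89 in OVT from 4 to 8 DAF, neither past the threshold; without OVT MM22 these OsMADS3 values were 4.96 and 4.31, both past it.

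Same-numbered libraries deviated together (correlation over 0.1) in 6 of 25 pairs (−0.195 to 0.461), and other pairs of a stage in 4 of 49 (−0.434 to 0.436). The numbers were therefore not taken to pair the libraries as a whole. All 4 CC and NE pairs were over 0.1 (0.105 to 0.209). In a group of 2 libraries the deviations mirror each other, so these tallies hold some values again with the sign turned. With the number as a block the count was 3 in the maternal mean, 1 in CC minus EN and 1 in NE minus CC at 8 DAF, and 1 in NE minus EN, 3 in OVT minus NE and 0 in NE minus CC at 16 DAF; the block lost 24 single-gene differences. Stage comparisons share no numbers. Depth limits low values most in OVT at 16 DAF, where 3 reads were worth 33.4, and next in CC at 8 DAF, where they were worth 28.5.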
